A study of Homo sapiens with 8 samples.

Results

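The genes described here code for zinc finger transcription factors and were taken from a deposited table by their names. Every row whose gene name began with ZNF, ZSCAN, ZKSCAN, ZBTB or ZFP followed by a digit was a member, except names with a hyphen and names ending in P or in P and digits, which mark pseudogenes. The rule found 17 of the 1950 genes of the table, 15 named ZNF and 2 named ZBTB (0 began with ZSCAN, ZKSCAN or ZFP). The member ZNF286B is called a pseudogene in the table's own description although its name passed the rule. Another 11 rows carried the same prefixes and were left out, 7 of them antisense or divergent transcripts, 3 pseudogenes and 1 readthrough, with 3 listed as higher and 8 as lower.

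RNA was sequenced from K562, an established human line of chronic myeloid leukemia. In the extract group, 4 libraries were made from cells that had received Caulis Polygoni Multiflori, a plant stem used in medicine, at 80 µg/mL for 3 days. The control group, also 4 libraries, was grown without it, and the labels give these cells no time in culture, so that time and the extract cannot be told apart. All 8 libraries come from the same line with no genetic change named, and whether the libraries of a group were separate cultures is not stated, so each p-value measures only the spread between libraries.

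Proteins of the C2H2 class fold short loops around a zinc ion, held by a pair of cysteines and a pair of histidines, and several such fingers in a row read a stretch of DNA. Many human members also carry a KRAB box, which recruits the corepressor TRIM28 and the histone methyltransferase SETDB1 and silences chromatin, often at transposable elements. Members with a BTB domain pair up through it and recruit other corepressors, and some of them direct the fate of blood cells. Genes of the KRAB group lie in large clusters, above all on chromosome 19.

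The table held only genes that the authors had already found to differ between these libraries, with a deposited p-value of at most 0.0499 and a change of at least 1.5-fold for each. A zinc finger gene not in the table was not analysed here, and no count of changed members is independent evidence of a difference. In the GENCODE annotation (release 29, GRCh38), 582 protein-coding genes had names that fit the rule, and 17 of them (2.92%) were listed, against 5.01% of all 19969 protein-coding genes. On chromosome 19 the listed share was 3.12% of 256 zinc finger genes and 7.95% of all 1472 protein-coding genes. These shares describe what entered the table and were not tested.

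Across the members the direction in the authors' deposited table was lower with the extract for 13 and higher for 4, while lower genes made up 56.4% of all listed genes and higher ones 43.6%. The authors' deposited table gave 13 of the 17 members (76.5%) an adjusted p under 0.05, against 45.9% of all listed genes. The 10 members whose value reached 1 in 4 or more libraries were tested in limma on log2(value + 1), with Benjamini-Hochberg adjustment over all 750 listed genes that passed this filter. These genes were already chosen for a difference in the same libraries, so the adjustment is lenient. No limma adjusted p given here is independent evidence of a difference. Of these 10, 2 rose and 6 fell with an adjusted p under 0.05, against 26.8% of the 750 that rose and 56.0% that fell. ZNF467 passed the filter only through its controls and so had to differ, and of the other 9 tested members 2 rose and 5 fell. Among these 9, the higher group alone met the filter for some. ZNF594 reached 1 in every extract library but among controls only in control 4. ZNF345 reached it in every control but with the extract only in extract 1. Called members made up 80% of those tested and called genes 82.8% of the 750, so the members' share lay near that of all tested genes. The median log2 change was −0.45 for the 10 members and −0.50 for all 750 genes.

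The sequences upstream of 5 members are printed here, because these are the 3 falling members with the lowest p-values in the authors' deposited table and both tested members that rose. Each is the run of 250 bases just before the gene's start in RefSeq (build GRCh38.p14), 5′ to 3′ on the gene's strand, in the order chr22:22520271-22520520, chr1:247078812-247079061 and chr19:57681727-57681976 for the genes that fell, then chr17:5191869-5192118 and chr20:63831265-63831514 for those that rose. ZNF551 is read from the plus strand and the other 4 from the minus strand. Capitals mark matches, on either strand, to GGGCGG (the GC box of SP and KLF factors), CCAAT (the site of NF-Y), CCGGAA (the core bound by ETS factors), CACGTG (an E-box) and AGATAA or TGATAA (sites of GATA factors), and TATAAA was searched as well.
ZNF280A: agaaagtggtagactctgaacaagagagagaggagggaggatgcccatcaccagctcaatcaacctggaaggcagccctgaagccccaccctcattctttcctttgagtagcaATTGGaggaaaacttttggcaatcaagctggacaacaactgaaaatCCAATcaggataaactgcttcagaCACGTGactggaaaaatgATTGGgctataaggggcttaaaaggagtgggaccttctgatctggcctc
ZNF670: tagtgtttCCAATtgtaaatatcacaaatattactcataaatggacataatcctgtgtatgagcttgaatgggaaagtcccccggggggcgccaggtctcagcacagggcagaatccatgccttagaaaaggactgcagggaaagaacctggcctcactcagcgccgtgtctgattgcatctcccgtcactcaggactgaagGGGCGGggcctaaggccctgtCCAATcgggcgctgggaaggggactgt
ZNF551: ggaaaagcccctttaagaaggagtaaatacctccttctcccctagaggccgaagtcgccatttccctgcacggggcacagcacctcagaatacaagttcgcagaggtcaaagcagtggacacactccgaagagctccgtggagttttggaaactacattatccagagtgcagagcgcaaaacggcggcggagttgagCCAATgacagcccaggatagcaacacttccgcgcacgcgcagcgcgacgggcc
ZNF594: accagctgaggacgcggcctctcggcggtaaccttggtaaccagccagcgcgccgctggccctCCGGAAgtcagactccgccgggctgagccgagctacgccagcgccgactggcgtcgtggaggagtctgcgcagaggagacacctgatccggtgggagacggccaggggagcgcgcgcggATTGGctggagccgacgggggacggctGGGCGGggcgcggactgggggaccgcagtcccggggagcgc
ZBTB46: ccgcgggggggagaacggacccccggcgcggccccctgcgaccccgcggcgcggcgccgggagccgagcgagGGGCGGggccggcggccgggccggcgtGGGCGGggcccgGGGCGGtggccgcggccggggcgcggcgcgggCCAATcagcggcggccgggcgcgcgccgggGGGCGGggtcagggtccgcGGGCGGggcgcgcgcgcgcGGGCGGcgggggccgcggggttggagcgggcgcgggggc

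The window of ZNF280A held 1 CpG and no GC box (0 matches), with 3 CCAAT matches and 1 E-box. The windows of ZNF670 and ZNF551 held 8 and 17 CpG, and those of ZNF594 and ZBTB46 held 32 and 55, against a median of 11 over 35116 RefSeq promoter windows of the same length. ZBTB46 had 6 GC box matches and a GC content of 91.6%. These 5 windows do not stand for all members of their direction. Windows of the other members listed as lower held from 0 CpG (ZNF679) to 30 (ZNF467), and that of ZNF284, listed as higher, held 18. A link between CpG and direction was not tested. Promoters were found for 15 of the 17 members, in 18 windows, since some genes have several starts. A member counted as having a motif if any of its windows held it. The share of all windows counts each window singly, so the member counts and these shares are not like for like. GGGCGG occurred in 10 of these 15 members and in 42.6% of all windows, CCAAT in 9 and in 32%, and CCGGAA in 5 and in 14.5%. CACGTG occurred in 2 members and in 6.34% of all windows, TGATAA in 1 and in 6.66%, AGATAA in 0 and in 9.17%, and TATAAA in 0 and in 10.7%. A match describes letters only, and no binding was measured.

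The proteins of the members differed in how many fingers they hold. Coding sequences from GENCODE were translated and searched for a cysteine pair with 2 to 4 residues between, then 12 residues, then a histidine pair with 3 to 5 between. The 17 members had from 2 to 21 such motifs, with a median of 10, and the 582 annotated zinc finger genes had a median of 10 as well. ZNF594 had 21, ZNF540 had 17, ZNF345 had 15 and ZBTB46 had 2. A pattern of the KRAB box (leucine, tyrosine, any 2 residues, valine, methionine) was found in 8 members (47.1%) and in 49.5% of the 582, but in 1.82% of all 19677 translated genes. Of the 8 members with it 7 were listed as lower and 1 as higher, and of the 9 without it 6 were lower and 3 higher. Those 8 include ZNF679, ZNF214, ZNF534 and ZNF284, the only members whose adjusted p in the authors' deposited table was not under 0.05.

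Among members with the KRAB pattern, ZNF670 and ZNF551 fell. ZNF670 (ENSG00000277462, chromosome 1, 247036784 to 247078755) codes for a protein with 8 fingers. Its expression values, in a unit the sources do not give, were 7.74, 8.03, 7.89 and 8.54 in controls 2 to 5 and 5.16, 5.01, 4.76 and 4.08 in extracts 1 to 4. The groups did not overlap, and extract 4 was the lowest library. The mean went from 8.05 ± 0.347 to 4.75 ± 0.478 (SD, n = 4 each), a log2 change of −0.66 ± 0.083 (SE, adjusted p = 0.000268 in limma). Its locus is shared with the readthrough gene ZNF670-ZNF695 on the same strand, so reads of the 2 genes may be mixed.

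ZNF551 (ENSG00000204519, chromosome 19, 57681969 to 57717301), with 14 fingers, had values of 9.42, 9.77, 7.98 and 10.53 in controls 2 to 5. In extracts 1 to 4 the values were 7.06, 4.33, 5.64 and 5.74. All extract libraries lay below all controls, with extract 1 the nearest to them and extract 2 the farthest. Its log2 change was −0.65 ± 0.136 (SE, limma adjusted p = 0.00321). The annotated span of ZNF551 overlaps the coding gene AC003006.1 on the same strand, so reads may be mixed, and ZNF154 on the other strand, and the sources used here do not say whether counting used strand.

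ZNF540, the third tested member with the KRAB pattern, did not pass. Its values were 0.75, 1.83, 1.4 and 1.14 in controls 2 to 5 and 0.58, 0.38, 0.63 and 1.30 in extracts 1 to 4. The groups overlapped, since extract 4 lay above controls 2 and 5. The log2 change was −0.41 ± 0.197 (SE, limma adjusted p = 0.0806), and its 95% interval ran from −0.86 to 0.04. Without control 2 or extract 4 it passed (limma adjusted p = 0.0399 and 0.0229). ZNF540 overlaps the zinc finger genes ZNF571 and ZFP30 on the other strand and ZNF571-AS1 on the same strand.

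Among members without the KRAB pattern, ZNF280A, ZNF467, ZNF296 and ZNF345 fell. ZNF280A (ENSG00000169548, chromosome 22, 22513736 to 22520270) lies in the region of the immunoglobulin lambda light chain genes and overlaps no other annotated gene. Its values were 10.58, 10.18, 10.96 and 10.19 in controls 2 to 5 and 6.98, 6.55, 5.51 and 5.90 in extracts 1 to 4. The controls lay close together and all extract libraries were lower. The mean went from 10.48 ± 0.372 to 6.24 ± 0.656, a log2 change of −0.67 ± 0.080 (SE, limma adjusted p = 0.000206).

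ZNF467 (ENSG00000181444, chromosome 7, 149764182 to 149773479), with 12 fingers, is known from work on the choice between fat and bone cells. Its values were 1.65, 1.72, 1.58 and 1.41 in controls 2 to 5 and 0.62, 0.97, 0.84 and 0.94 in extracts 1 to 4. The groups did not overlap, as the filter required here, since the 4 values of at least 1 were the 4 controls. Its log2 change was −0.49 ± 0.096 (SE, limma adjusted p = 0.00219), while the authors' deposited table gave −1.18. The first is on the log2(value + 1) scale, which shrinks changes of genes near 1, and the log2 ratio of the group means was −0.92.

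ZNF296 (ENSG00000170684, chromosome 19, 45071500 to 45076588), whose mouse counterpart is known from work on pluripotent cells, had values of 3.76, 4.78, 4.75 and 5.19 in controls 2 to 5. In extracts 1 to 4 the values were 3.19, 3.27, 3.51 and 2.06. The groups were separated only narrowly, control 2 being near extract 3. Its log2 change was −0.50 ± 0.147 (SE, limma adjusted p = 0.0151). The span of ZNF296 overlaps GEMIN7-AS1 on the same strand, so reads may be mixed.

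ZNF345 (ENSG00000251247, chromosome 19, 36850361 to 36913029), which has 15 fingers, passed at the edge of the threshold. Controls 2 to 5 had 1.49, 1.46, 1.16 and 1.84, and extracts 1 to 4 had 1.45, 0.87, 0.90 and 0.70. Extract 1 lay above control 4, so the groups overlapped. The log2 change was −0.34 ± 0.139 (SE, limma adjusted p = 0.0497). The call held in only 2 of 8 fits that each left out 1 library, without extract 1 or control 4. Without extract 2, 3 or 4 or control 2, 3 or 5 it was lost, and the limma adjusted p of the 8 fits ranged from 0.0128 to 0.121. The span of ZNF345 overlaps the zinc finger genes ZNF790 and ZNF829 on the other strand and the pseudogene RPL31P61 on the same strand.

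ZNF579, on chromosome 19 (55576770 to 55580845), was the other tested member that did not pass. Controls 2 to 5 had values of 7, 7.73, 7.03 and 3.86, and extracts 1 to 4 had 5.28, 4.26, 3.75 and 5.26. Control 5 lay within the extract range, whereas the other 3 controls were above every extract library. Its log2 change was −0.37 ± 0.197 (SE, limma adjusted p = 0.108), and without control 5 it was −0.56 with a limma adjusted p of 0.00639. For ZNF579 the authors' deposited table gave −0.63 as log2 fold change, with an adjusted p of 3.84e-07, while the log2 ratio of the deposited means was −0.47.

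**Figure D1:**
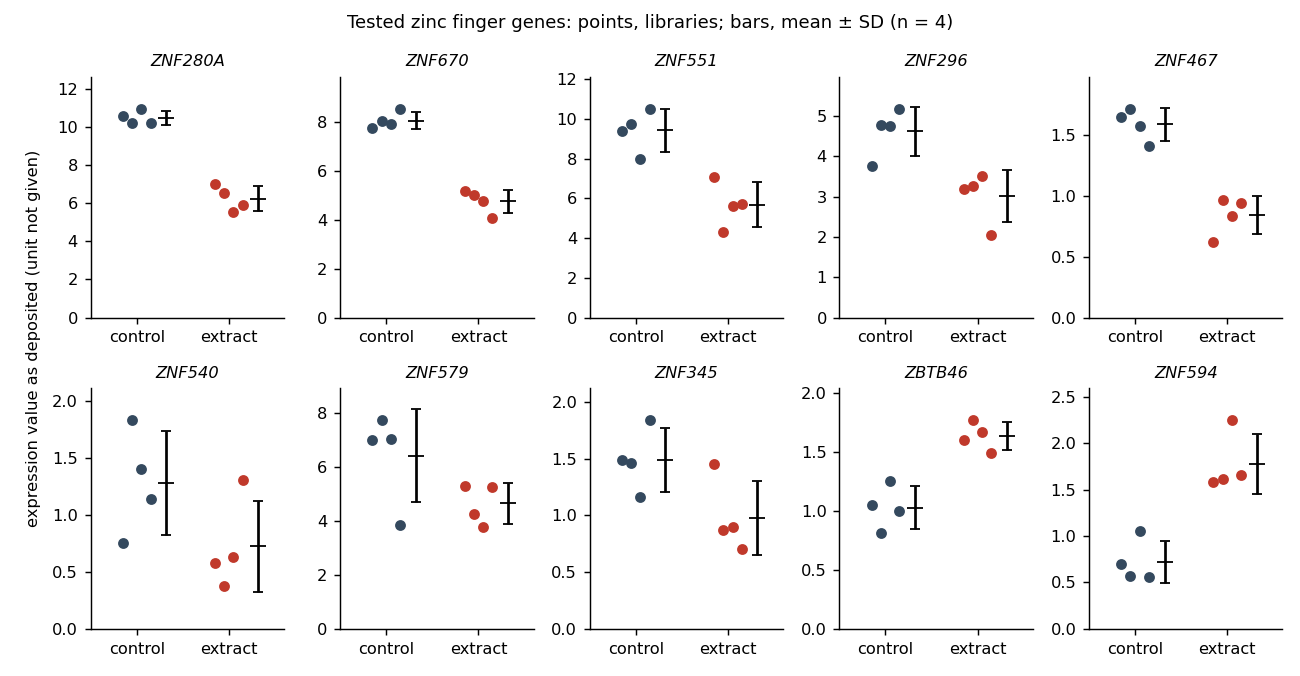
Expression values as deposited (vertical axes from 0, unit not given) of the 10 tested zinc finger genes in the control (dark) and extract (red) libraries, 1 point per library, with mean ± SD (n = 4) beside them. In 7 of the 10 genes the groups do not overlap, and in ZNF579 the lowest control, control 5 at 3.86, sits among the extract libraries.

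The tested members that rose were ZNF594 and ZBTB46. ZNF594 (ENSG00000180626, chromosome 17, 5179536 to 5191883), the member with 21 fingers, had values of 0.70, 0.57, 1.05 and 0.56 in controls 2 to 5. In extracts 1 to 4 they were 1.58, 1.61, 2.25 and 1.66. Every extract library was above every control, and extract 3 stood above the other 3. The mean went from 0.72 ± 0.229 to 1.78 ± 0.318, a 2.47-fold difference of means. The log2 change was 0.69 ± 0.126 (SE, limma adjusted p = 0.00164), and ZNF594 overlaps no other annotated gene.

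ZBTB46 (ENSG00000130584, chromosome 20, 63743666 to 63831244) codes for a BTB factor known as a marker of classical dendritic cells. Its values were 1.05, 0.81, 1.25 and 1.00 in controls 2 to 5 and 1.6, 1.77, 1.67 and 1.49 in extracts 1 to 4. The groups did not overlap, and the mean went from 1.03 ± 0.181 to 1.63 ± 0.118. The log2 change was 0.38 ± 0.095 (SE, limma adjusted p = 0.0073). ZBTB46-AS1 lies on the other strand within the locus and was not in the table, and LIME1, 4.56 kb away, was the nearest listed gene.

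**Figure D2:**
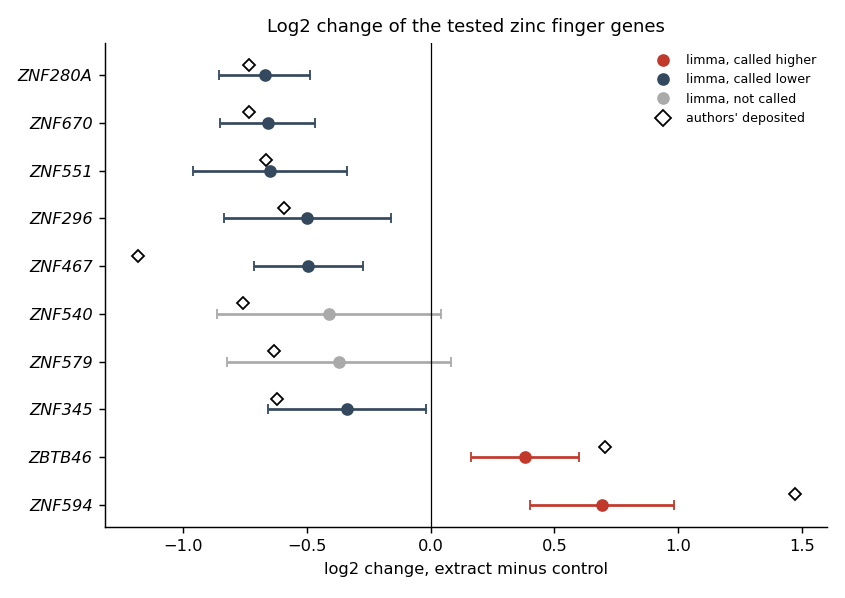
Log2 change of the 10 tested zinc finger genes (horizontal axis, extract minus control), with limma estimates on the log2(value + 1) scale as circles with 95% intervals and the log2 fold change of the authors' deposited table as open diamonds. The intervals of ZNF540 and ZNF579 cross 0, and the diamonds of ZNF467 (−1.18), ZNF594 (1.47) and ZBTB46 (0.71) lie outside the limma intervals.

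In these 10 genes the groups did not overlap for 7, against 67.7% of the 750 tested genes. Over all 17 members they did not overlap for 9 (52.9%), against 41.9% of the 1950 listed genes. The members' changes lay within those of the other listed genes, as the plot of all tested genes shows. Centring each library on its median over the tested genes moved the median change of all 750 by 0.27. These genes were chosen for change and more fell than rose, so the centring may itself remove change with the extract. After the centring 2 members were called higher and 3 lower, against 228 and 241 genes in all. ZNF296, ZNF345 and ZNF467 lost their calls under this centring (limma adjusted p = 0.19, 0.647 and 0.0885). Adjusted over the family of 60664 genes inferred from the deposited p-values, only ZNF280A and ZNF670 of the members were still called (limma adjusted p = 0.0166 and 0.0217).

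**Figure D3:**
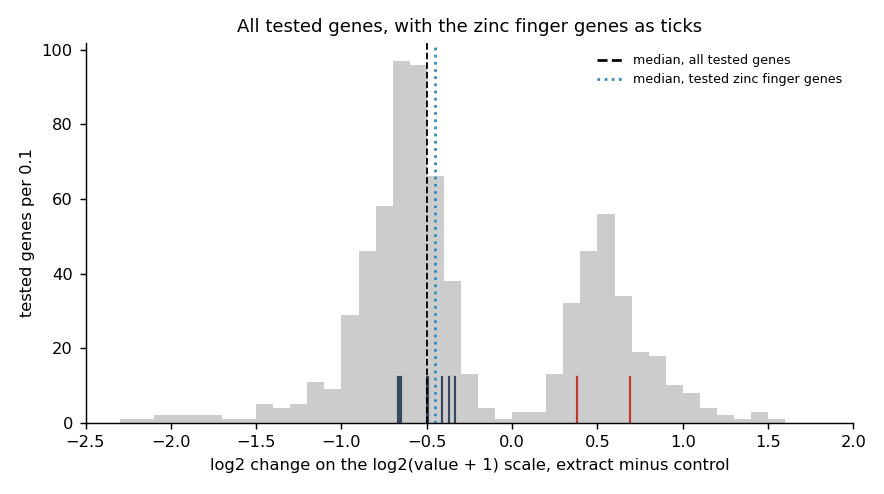
Histogram of the log2 change (horizontal axis, extract minus control, on the log2(value + 1) scale) of the 750 tested genes in bins of 0.1, with the 10 tested zinc finger genes as ticks, dark where lower and red where higher, and 3 genes beyond the plotted range of −2.5 to 2. The medians of all genes (dashed, −0.50) and of the zinc finger genes (dotted, −0.45) lie close together, and few genes lie near 0 because the table was chosen for change.

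The 7 members below the filter were listed as higher in 2 cases and lower in 5, and the authors' deposited table gave 3 of them an adjusted p under 0.05. ZBTB16 (ENSG00000109906, chromosome 11, 114059593 to 114250676), known as PLZF, is a BTB factor of innate-like lymphocytes and is fused to the retinoic acid receptor gene RARA in a rare leukemia. Its values were 0.98, 0.72, 1.2 and 0.75 in controls 2 to 5 and 0.21, 0.27, 0.41 and 0.53 in extracts 1 to 4. Each extract library was below each control, and the means were 0.912 ± 0.224 and 0.355 ± 0.144. The log2 ratio of these means was −1.36, against −0.88 as log2 fold change in the authors' deposited table. This gap of 0.49 was wider than for the other 13 members with a ratio. So the 2 BTB members were listed in opposite directions, ZBTB46 higher and ZBTB16 lower.

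ZNF257 (chromosome 19, 22052452 to 22091480), with the KRAB pattern, missed the filter by 1 library, since 3 of its 8 values reached 1. It had 1.59, 0.97, 1.03 and 1.46 in controls 2 to 5 and 0.89, 0.92, 0.78 and 0.58 in extracts 1 to 4, so that the groups just failed to touch. ZNF467 and ZNF540 were just inside the filter, each with 4 values of at least 1. With no filter ZBTB16 would have been called lower (log2 change −0.50, limma adjusted p = 0.0129) and ZNF257 would not (−0.33, adjusted p = 0.0564).

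ZNF286B, the member described as a pseudogene, had 0.39, 0.28, 0.30 and 0.30 in controls 2 to 5 and 0.39, 0.56, 0.42 and 0.53 in extracts 1 to 4. Control 2 and extract 1 had the same value. It is a close copy of ZNF286A, so its reads are uncertain. ZNF214, a KRAB member on chromosome 11, ranged from 0.22 to 0.43 in controls and from 0.16 to 0.28 with the extract, and the groups overlapped.

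Another 3 members were listed at 0 in every library of a group, so no fold is given from the values. ZNF679 had 0.06, 0.00, 0.20 and 0.04 in controls 2 to 5 and was listed at 0 in all 4 extract libraries. ZNF534 had 0.00, 0.18, 0.07 and 0.16 in controls 2 to 5 and was likewise listed at 0 with the extract. ZNF284 was listed at 0 in all 4 controls and had 0.02 and 0.04 in extracts 1 and 2 and 0 in the others. Their log2 fold changes in the authors' deposited table, −3.64, −3.43 and 3.27, were the widest of the members, with adjusted p of 0.195, 0.275 and 0.329 there. All 3 carry the KRAB pattern.

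**Figure D4:**
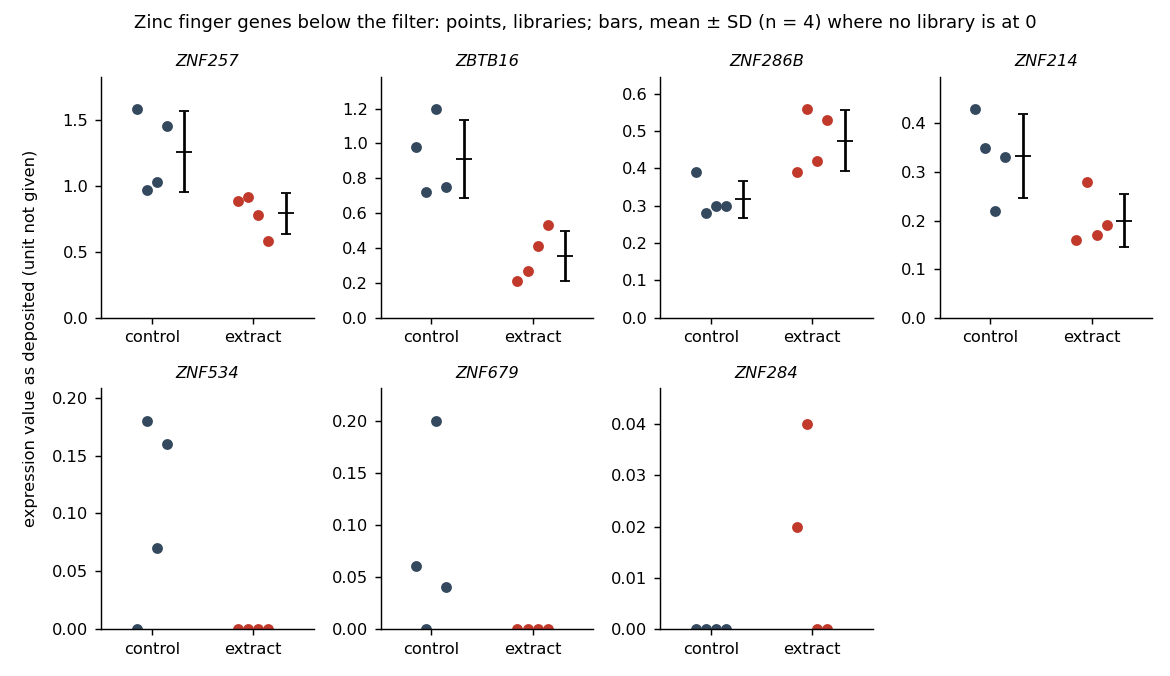
Expression values as deposited (vertical axes from 0, unit not given) of the 7 zinc finger genes below the filter, 1 point per library, control dark and extract red, with mean ± SD (n = 4) where no library is at 0. The groups of ZNF257 and ZBTB16 do not overlap, and ZNF534, ZNF679 and ZNF284 are at 0 in a whole group.

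For 14 members the log2 ratio of the deposited means could be computed, and in all 14 it had the sign of the log2 fold change in the authors' deposited table. The means of ZNF579 and ZNF286B, 2 of the 14, differed by less than 1.5-fold.

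The members were spread over 7 chromosomes, with 8 on chromosome 19, which is 47.1% of the members against 44% of the 582 annotated zinc finger genes. Of these 8, 7 were listed as lower and 1 as higher, and both members on chromosome 17, ZNF594 and ZNF286B, were listed as higher. No 2 members on chromosome 19 started within 100 kb of each other, the shortest distance being 701 kb between ZNF345 and ZNF540. The span of 11 members overlapped another annotated gene, for 10 of them on the other strand, and in 0 cases was the overlapping gene listed. ZNF670, ZNF551, ZNF296, ZNF540, ZNF286B, ZNF345 and ZNF284 overlapped a gene on the same strand, so their reads may be mixed. A listed gene of another kind lay within 100 kb of 5 members.

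The partners through which such factors act were not in the table. None of 25 genes for KRAB corepressors and heterochromatin, TRIM28 and SETDB1 among them, and none of 20 genes for the corepressors of BTB and related factors was listed (0 of each), so their levels were not analysed here. Of 107 C2H2 zinc finger factors with names outside the prefixes, 8 were listed (7.48%, against 5.01% of all protein-coding genes) and 6 tested, of which 2 rose and 4 fell in limma. Over all 750 tested genes 26.8% rose and 56.0% fell, in a table chosen for change, and KLF15 passed the filter only through its controls. IKZF4, a factor of the Ikaros family, rose from 6.61 ± 0.742 to 11.46 ± 0.518 (log2 change 0.72), as did ZFPM1 (0.72). KLF9, a repressor of the Krüppel-like family, fell from 10.10 ± 0.588 to 5.48 ± 0.406 (log2 change −0.78), and KLF15, known from metabolic tissues, fell from 2.35 ± 0.636 to 0.835 ± 0.103 (−0.85). EGR1 fell by 0.73 and KLF5 by 0.31 on the log2 scale. SP8 and SP9 were below the filter and had −0.84 and −1.27 as log2 fold changes in the authors' deposited table.

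Listed values summed to between 13114 and 14134 per library, which is no depth because the list is partial, and the depth is unknown. Correlations of log2(value + 1) over all listed genes ranged from 0.936 to 0.964 for libraries of the same group and from 0.872 to 0.903 otherwise, and 0 pairs of libraries were identical. Of 15 fixed markers of K562, erythroid and megakaryocytic cells 3 were listed, HBZ, GP1BB and ITGA2B, so the label could be checked only in part. In limma HBZ was called higher (log2 change 0.83) and GP1BB and ITGA2B lower (−0.64 and −0.57). The groups overlapped for GP1BB (limma adjusted p = 0.0268) but not for HBZ and ITGA2B. Of 6 epithelial and fibroblast markers only COL1A1 was listed, with values from 0.47 to 0.67 in controls and from 0.24 to 0.36 with the extract. This marker was lower with the extract, as most members were, and its part in the members' results was not tested. In bulk RNA, fewer cells of a type and less RNA per cell cannot be told apart.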

How the data were processed

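RNA was sequenced from 8 libraries of K562 cells, 4 given the extract and 4 controls, and grouped by the treatment label. HISAT2, StringTie and the build GRCh38 appear in the submitters' processing notes without versions or roles. The deposited expression values carry no stated unit, so they were taken as a score per gene and library that cannot be read as TPM or FPKM, and they are not read counts. The authors' deposited table also gives a ratio (fold change), its log2 and a p-value with its adjusted p-value per gene, from a tool that the sources used here do not name. The depth per library is unknown and no interval for counting error is given.

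Genes whose value reached 1 in 4 or more libraries were compared in limma 3.58.1 (R 4.3.3), with trended and robust moderation on log2(value + 1), with Benjamini-Hochberg adjustment across all 750 genes tested and calls at 0.05. The step was tested on simulated data with known changes. The result of 1 marker list is not reported here. Members and lists were chosen with earlier results of these data known. The plan for naming genes gave library values for called members whose groups did not overlap and for the widest changes. It allowed up to 6 members below the filter to be named, without library values. Library values of the other members were added, and the remaining members named, after their values were seen. Fingers were counted in translated GENCODE coding sequences, where RefSeq proteins had been planned. The family of 60664 genes was the size at which the rank implied by deposited p and adjusted p was whole (within 0.02) for 100% of 1379 genes. Alternatives were other pseudocounts, filters, scalings, moderation and adjustment, a replicate block and leaving out each library.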

Additional observations from a re-analysis of the deposited data

Results flagged for a closer look

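In 34 groups of 4 libraries, 2 for each zinc finger gene, 1 library passed Dixon's 95% critical value for its distance from the other 3. Chance gives at most about 1.7, since 3 of these groups were 0 in every library and could not be flagged. The flagged library was extract 3 for ZNF594, at 2.25, with the other extract libraries between 1.58 and 1.66. Without extract 3 the log2 change of ZNF594 was 0.61 and the gene was still called higher (limma adjusted p = 0.00434). Control 5 for ZNF579, at 3.86, came close to that value without passing it, with a gap of 81.1% of the control range.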

How the results depend on the processing

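Among the 10 tested zinc finger genes, 0 changed direction under any alternative run. Members called higher numbered 2 in each of the 8 fits without 1 library, and members called lower 5 to 6. Over the whole table those fits called 538 to 584 genes, 163 to 190 higher and 369 to 394 lower, and the median log2 change of the members lay between −0.51 and −0.40. With a filter at 3 in 4 or more libraries, which leaves 5 members, 0 members were called higher and 4 lower, 370 genes in all (107 higher, 263 lower), and the median was −0.65. Both rising members, ZNF594 and ZBTB46, were below 3 in every library, so this filter removed them before the fit. Adjusted over the family of 60664 genes, 0 members were called higher and 2 lower, and 167 genes in all (45 higher, 122 lower). Median centring left 3 members and 241 genes called lower, with a member median of −0.18. Quantile normalization left 4 members and 251 genes called lower, with a median of −0.26, and ZNF296 and ZNF345 lost their calls (limma adjusted p = 0.197 and 0.188). Like the centring, it used only genes chosen for change and may remove part of that change. Without a filter 314 genes were called higher, and 1950 genes were tested. With a pseudocount of 0.1 the member median was −0.68, and ZNF345 lost its call with this pseudocount, with 0.5 and without a filter (limma adjusted p = 0.0517, 0.0501 and 0.0742). Moderation without trend and robust steps changed no call of a member (0 of 10).

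Numbers 2 to 4 occur in both groups, and the deviations of same-numbered libraries correlated at 0.0754, 0.0754 and 0.149. For extracts 2, 3 and 4 these weak correlations were each the highest with any control. Whether the numbers pair cultures is not stated. With the replicate block, 1 member was called higher and 6 lower, and 511 genes in all. In that fit extract 1 and control 5, each alone in its number, added nothing to the estimates, which rested on numbers 2 to 4. ZBTB46 and ZNF296 lost their calls (limma adjusted p = 0.0689 and 0.0772). ZNF579, whose lowest control was control 5, gained 1 (0.0229). Extract 1, whose number no control has, correlated with control 2 at 0.136, above the same-numbered extract 2. The block changed both the pairing and the libraries that entered the estimates, and their parts in these shifts were not tested. Depth cannot be read from the values, so what it limits is unknown.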
